A study of Homo sapiens with 9 samples.

Results

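The mitochondrial ribosomal protein genes are nuclear genes whose products are imported into mitochondria and build the ribosome found there, with symbols that start with MRPL for the large subunit and MRPS for the small subunit. They were taken as every symbol of the deposited table that reads MRPL or MRPS, then a number and at most a letter from A to C. This gave 78 of the 27315 symbols, 49 MRPL and 29 MRPS, and all 78 were expressed highly enough to be among the 13165 genes tested. The libraries came from MDA-MB-468, an established line of human triple-negative breast cancer cells grown in RPMI medium with serum. There were 3 libraries of cells carrying the BBOX1 hairpin sh1, 3 with the BBOX1 hairpin sh6 and 3 with a scrambled control hairpin. Every group, the control included, had been infected with a lentiviral pLKO.1 vector made in 293T packaging cells and selected with a drug. The protocol gives target sequences under the names sh1 and sh2, so the sequence that sh6 carries is not stated. Independent cultures are not mentioned for the triplicates, so p-values measure only how much these libraries vary, and that variation may be technical.

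BBOX1, the enzyme of the last step of carnitine synthesis, had a normalised count of 333 ± 11.5 with sh1, 601 ± 19.0 with sh6 and 2616 ± 226 in controls (SD, n = 3 each), so the hairpin means were 12.7% and 23.0% of the control mean. Depth recovered from the deposited values was 15725651 to 16215360 reads per library with sh1, 16051114 to 18859792 with sh6 and 16720984 to 19730475 in controls, and replicates correlated across genes at r of 0.996 to 0.998. All 6 markers of breast epithelial cells were present, with summed counts of 144872 to 161143 in every library. Summed fibroblast markers stayed between 285 and 444, leucocyte markers between 0 and 5.0196, and endothelial markers were 11.3 to 18.9 with sh1, 9.58 to 11.9 with sh6 and 24.6 to 32.8 in controls. Of the fibroblast markers, COL1A1 alone averaged 304 with sh1, 332 with sh6 and 374 in controls. PDGFRB, the next highest, averaged 9.03, 9.93 and 9.46. In bulk RNA, less transcript in every cell and fewer cells carrying it cannot be told apart.

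The mitochondrial ribosome translates the few messenger RNAs encoded by mitochondrial DNA, which all specify subunits of the respiratory chain and ATP synthase. Its large subunit joins amino acids and its small subunit reads the message, and each combines proteins with bacterial counterparts and proteins found in mitochondria but not in bacteria. Because every protein component is encoded in the nucleus, assembly depends on the supply of many imported proteins at once, together with ribosomal RNA made inside the organelle. Mitochondrially encoded transcripts were not analysed here.

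Mitochondrial ribosomal protein genes moved in both directions with each hairpin, in about equal numbers and mostly by small amounts. With sh1, 8 MRPL genes rose and 12 fell, and 9 MRPS genes rose and 6 fell, at an adjusted p under 0.05 in limma with Benjamini-Hochberg adjustment over all genes tested. That is 21.8% of the 78 higher and 23.1% lower, beside 29.0% and 30.0% of all genes tested. With sh6, 16 MRPL genes rose and 14 fell, and 8 MRPS genes rose and 10 fell, which is 30.8% each way beside 34.2% higher and 33.6% lower among all genes. Leaving out 1 library at a time, 6 to 12 MRPL genes were called higher with sh1 and 11 to 13 lower. Without sh6 replicate 3 or control replicate 2, the MRPS genes called lower with sh6 numbered 6 and 5. With each library centred on its median, the MRPS split with sh6 was 10 higher and 5 lower.

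The sizes of the changes were below those of all genes tested, which were not matched for level. The lowest control mean of a member was 171, in MRPS28, while genes were tested from a normalised count of 16.2. The median absolute log2 change of the 78 genes was 0.12 with sh1 and 0.19 with sh6, against 0.22 and 0.28 over all genes tested. The median signed change was 0.0029 for MRPL and 0.024 for MRPS genes with sh1, and 0.012 and -0.039 with sh6. A called change of at least 1.5-fold was seen in 1 of the 78 genes with sh1, MRPL38, where 19.3% of all genes passed that mark. With sh6 it was seen in 8, where 26.9% of all genes did: MRPL19 and MRPL55 rose, and MRPL45, MRPL17, MRPS10, MRPS35, MRPL18 and MRPL14 fell.

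**Figure D1:**
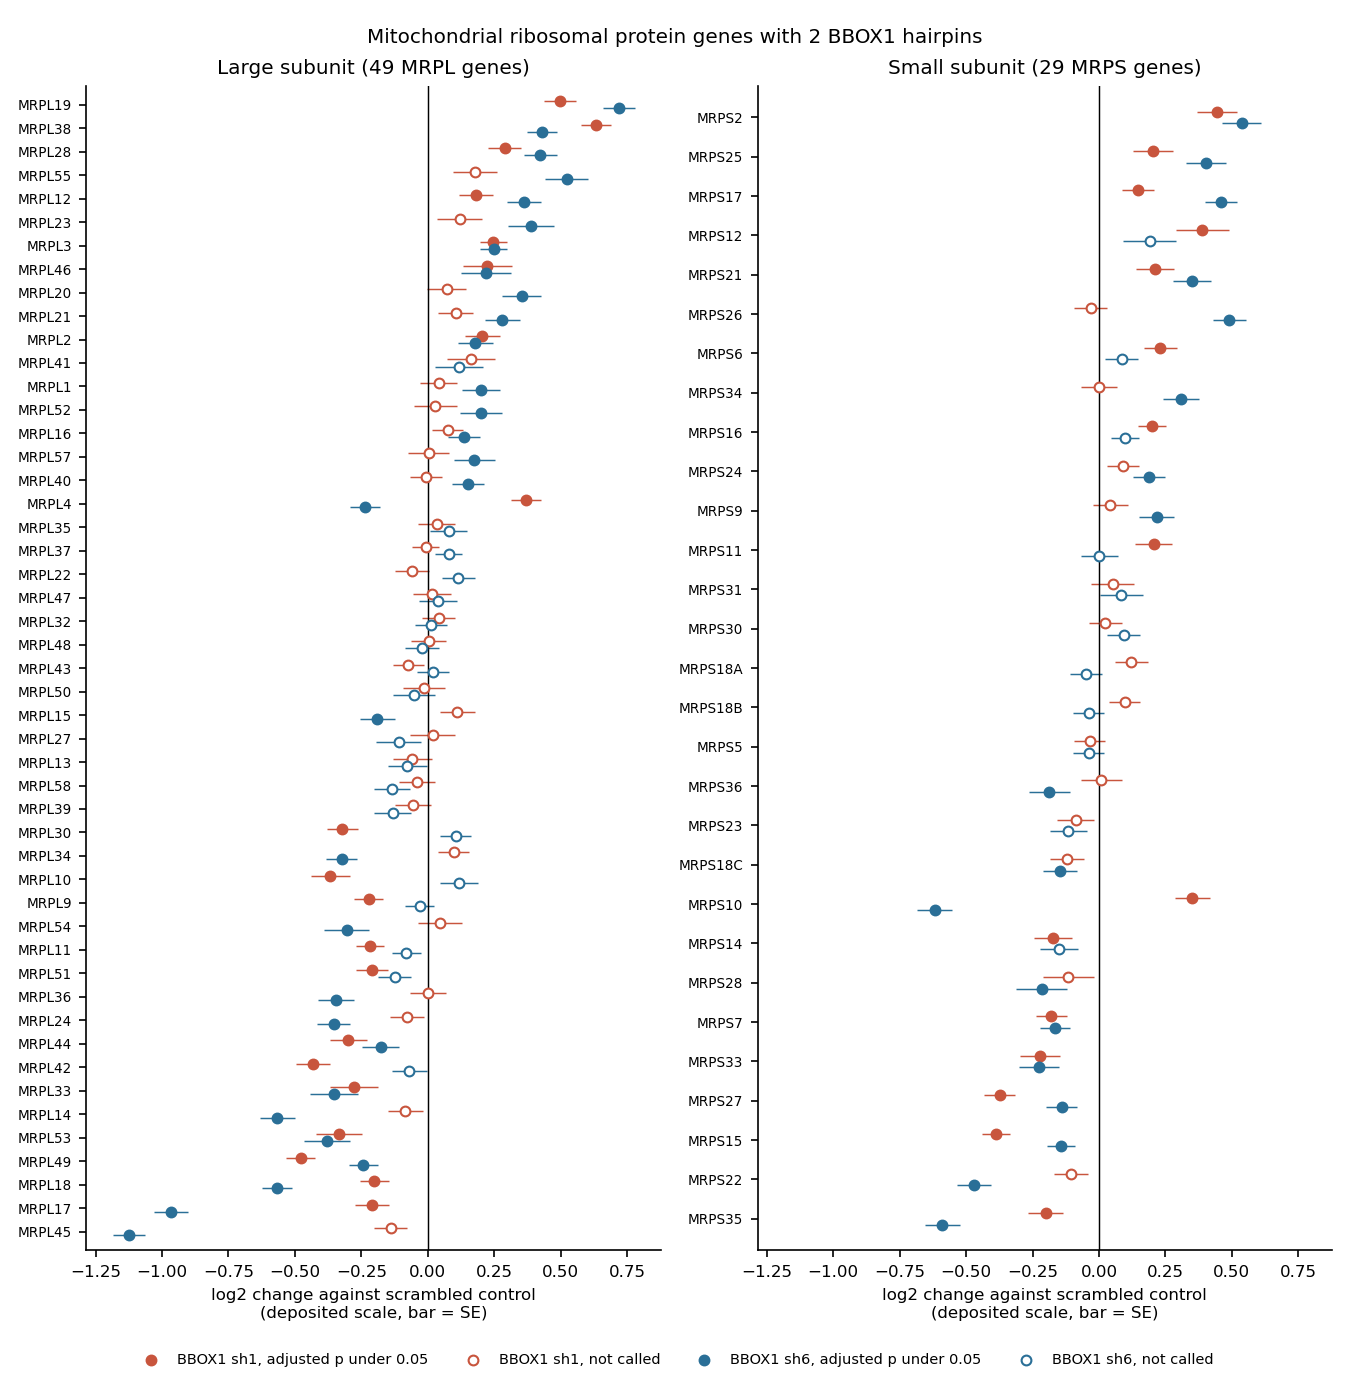
Log2 change on the deposited scale against the scrambled control (horizontal axis, bar = SE) for each of 49 MRPL and 29 MRPS genes (vertical axis), with sh1 and sh6, filled where the adjusted p is under 0.05. Most points lie within 0.5 of 0, MRPL45 and MRPL17 reach -1.13 and -0.97 with sh6, and the points of MRPS10 and MRPL4 lie on opposite sides of 0.

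**Figure D2:**
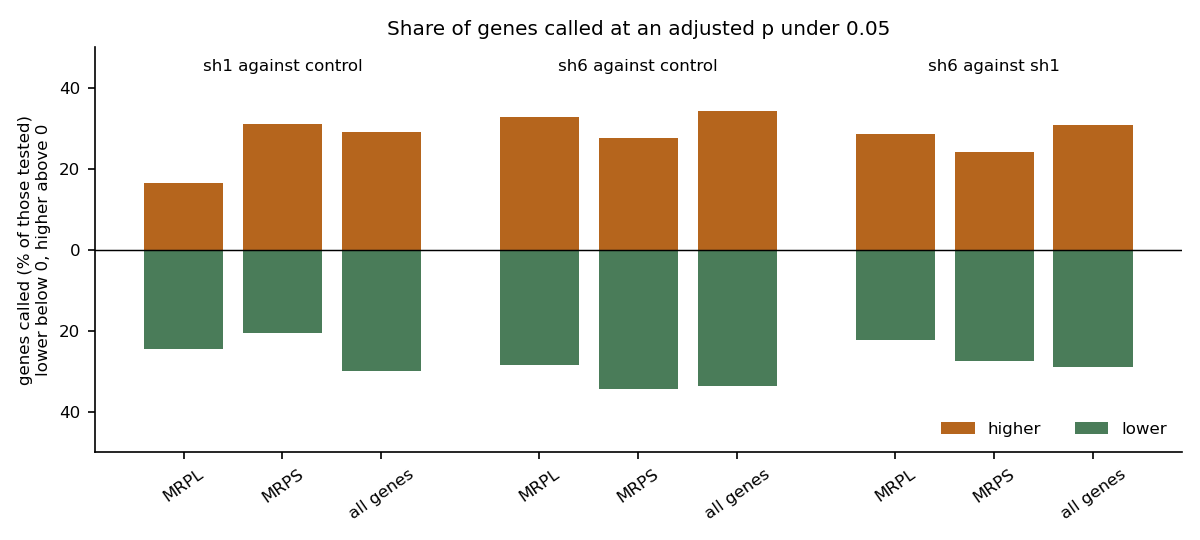
Percent of genes called higher (above 0) and lower (below 0) for MRPL genes, MRPS genes and all genes tested in each comparison. With sh1, 16.3% of MRPL genes were called higher and 24.5% lower, beside 29.0% and 30.0% of all genes.

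Added up over the genes, the messenger RNA for each subunit was at nearly the same level in all libraries. The summed normalised count of the 49 MRPL genes was 56537, 58465 and 56379 with sh1, 56644, 56072 and 56477 with sh6, and 57318, 58180 and 56946 in controls. For the 29 MRPS genes it was 28557, 29163 and 28582 with sh1, 28441, 29071 and 28414 with sh6, and 28424, 29364 and 28637 in controls. In each subunit the libraries of every hairpin overlapped the controls, or missed them by less than the range of the controls themselves. The ratio of the MRPL to the MRPS sum stayed between 1.93 and 2.02 in the 9 libraries. As a share of all counts the picture depended on the scaling: the 78 genes made up 0.527% to 0.551% with sh1, 0.493% to 0.496% with sh6 and 0.492% to 0.503% in controls, so that on this scale the sh1 libraries lay above the controls. Beside them, the summed count of 81 cytosolic ribosomal protein genes, which build the ribosome outside mitochondria, was 656914 to 692820 with sh1, 794114 to 838421 with sh6 and 885825 to 940169 in controls, with no overlap between groups.

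**Figure D3:**
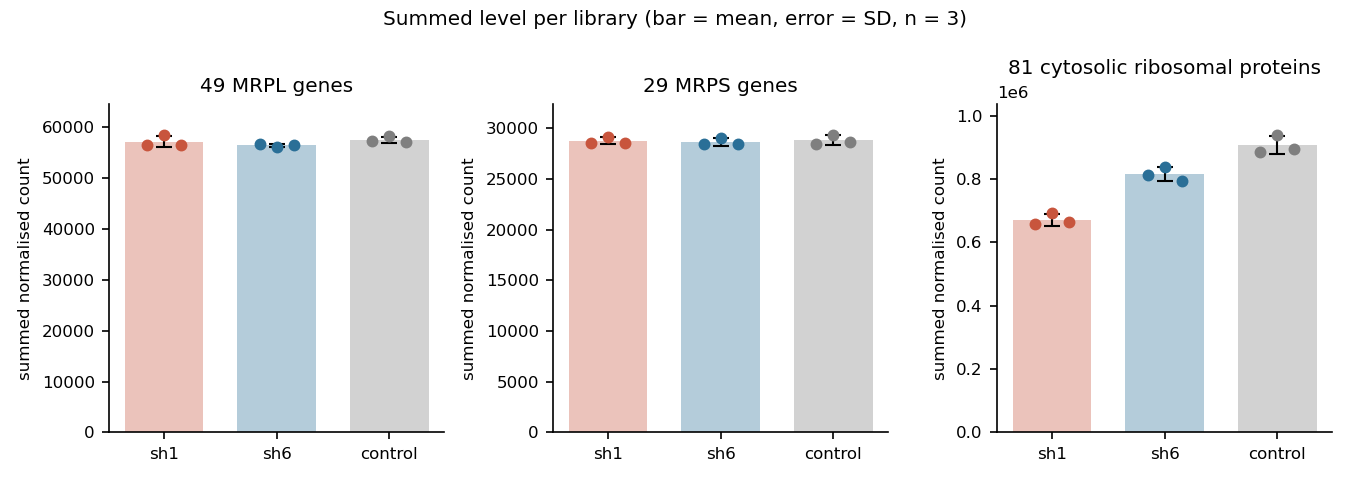
Summed normalised count per library (vertical axis) for 49 MRPL genes, 29 MRPS genes and 81 cytosolic ribosomal protein genes, with sh1, sh6 and control from left to right; bars are means, error bars SD, n = 3. The MRPL means are 57127, 56397 and 57481, while the cytosolic means are 671453, 815514 and 907138.

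Changes in the same direction with both hairpins were found for 22 genes, 11 higher and 11 lower. Among MRPL genes 7 rose and 6 fell with both, and among MRPS genes 4 rose and 5 fell. Over all genes tested 18.9% rose and 19.4% fell with both, and these comparisons share the control libraries. Without sh1 replicate 2 there was 1 MRPS gene higher with both, and without sh6 replicate 3 or control replicate 2 the MRPS genes lower with both numbered 3 and 2. Among MRPL genes, leaving out 1 library at a time gave 5 to 10 higher with both and 4 to 8 lower with both. Centred on the library median, 6 MRPS genes were higher with both and 3 lower.

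The large-subunit genes higher with both hairpins were MRPL19, MRPL38, MRPL28, MRPL12, MRPL3, MRPL46 and MRPL2. MRPL19, whose bacterial counterpart L19 lies at the interface of the subunits, had counts of 1166, 1107 and 1204 with sh1, 1274, 1383 and 1434 with sh6, and 809, 817 and 784 in controls. All 6 hairpin libraries lay above all 3 controls, and the rises were 1.44-fold with sh1 (log2 change 0.50, SE 0.060, limma adjusted p = 2.49e-08) and 1.70-fold with sh6 (log2 change 0.72, SE 0.060, adjusted p = 7.06e-12). MRPL19 spans bases 75646783 to 75690851 of chromosome 2, plus strand (GRCh38). GCFC2, on the opposite strand, overlaps it over 38852 bases and had mean counts of 382 with sh1, 442 with sh6 and 378 in controls.

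MRPL38, a protein of the large subunit without a bacterial counterpart, had counts of 1653, 1747 and 1690 with sh1, 1511, 1501 and 1386 with sh6, and 1076, 1030 and 1110 in controls. No hairpin library overlapped the controls, and here sh1 gave the larger rise, 1.58-fold (log2 change 0.63, SE 0.057, adjusted p = 6.01e-11), beside 1.37-fold with sh6 (log2 change 0.43, adjusted p = 1.03e-07). The difference between the hairpins was itself called, at a log2 of -0.20 for sh6 minus sh1 (adjusted p = 0.00297). MRPL28, the counterpart of bacterial L28, averaged 977 ± 12.1 with sh1, 1081 ± 84.2 with sh6 and 789 ± 43.5 in controls (SD, n = 3 each), and all hairpin libraries were above the controls. MRPL12 is the stalk protein that receives translation factors on the large subunit, and its log2 changes were 0.18 with sh1 and 0.36 with sh6. MRPL46, the large-subunit gene with the lowest level per length, rose by log2 0.22 with each hairpin. That call was lost for sh1 without sh1 replicate 2, sh1 replicate 3 or control replicate 2 (adjusted p 0.117 to 0.348), and for sh6 without sh6 replicate 2 or control replicate 2 (0.166 to 0.353).

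Among small-subunit genes, MRPS2, MRPS25, MRPS17 and MRPS21 rose with both hairpins. MRPS2, the counterpart of bacterial S2, had counts of 789, 781 and 832 with sh1, 942, 793 and 845 with sh6, and 627, 491 and 608 in controls. Both hairpins' libraries lay above all controls and overlapped each other, with rises of 1.39-fold with sh1 (log2 change 0.44, SE 0.075, adjusted p = 7.47e-06) and 1.495-fold with sh6 (log2 change 0.54, SE 0.075, adjusted p = 2.27e-07). C9orf116 overlaps MRPS2 over 1751 bases on the opposite strand and rose as well, to 75.9 with sh1 and 115 with sh6, against 46.8 in controls. MRPS17, the counterpart of bacterial S17, averaged 1255 ± 9.22 with sh1, 1578 ± 144 with sh6 and 1128 ± 26.3 in controls (SD, n = 3 each). Its sh1 call (adjusted p = 0.0398) was lost without any of the 3 sh1 libraries and without control replicate 1 or 3 (adjusted p 0.0664 to 0.105). MRPS25, a protein particular to mitochondria, averaged 423 ± 18.5 with sh1, 494 ± 14.9 with sh6 and 360 ± 41.0 in controls, and its sh1 call was lost without sh1 replicate 2 or control replicate 2 (adjusted p 0.0883 to 0.153).

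The genes lower with both hairpins were MRPL17, MRPL18, MRPL49, MRPL53, MRPL33 and MRPL44 in the large subunit and MRPS35, MRPS15, MRPS27, MRPS33 and MRPS7 in the small one. MRPL49, a protein particular to mitochondria and the member with the highest level per length, had counts of 4202, 4391 and 4012 with sh1, 5247, 4706 and 4925 with sh6, and 6052, 5911 and 5663 in controls. All hairpin libraries were below the controls, and the sh1 libraries were also below the sh6 ones. The log2 changes of MRPL49 were -0.48 with sh1 (SE 0.054, adjusted p = 5.68e-09) and -0.24 with sh6 (SE 0.054, adjusted p = 0.000215). MRPL49 shares ground with genes on the other strand: FAU, a ribosomal protein fusion gene that starts 290 bases from it, averaged 4362 with sh1, 5437 with sh6 and 4939 in controls, and SYVN1, a ubiquitin ligase that overlaps it over 5189 bases, averaged 1579, 1163 and 2024.

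MRPS15, the counterpart of bacterial S15, stood second in level per length, and its counts were 3251, 3329 and 3212 with sh1, 3942, 4010 and 3716 with sh6, and 4238, 4514 and 4141 in controls. The groups did not overlap, and its log2 change was -0.39 (adjusted p = 1.75e-07) under sh1 but -0.14 (adjusted p = 0.0183) under sh6. The sh6 call was lost without sh6 replicate 3 or control replicate 2 (adjusted p 0.0991 to 0.0998). MRPS27, a protein of the pentatricopeptide repeat family, averaged 975 ± 23.0 with sh1, 1158 ± 21.98 with sh6 and 1284 ± 80.3 in controls. Its sh6 call was lost without any of the 3 sh6 libraries or control replicate 2 (adjusted p 0.0549 to 0.208). MRPL53 averaged 184 ± 8.36 with sh1, 177 ± 15.7 with sh6 and 248 ± 33.1 in controls. All hairpin libraries were below the controls, and those of the hairpins overlapped. MRPL33, the counterpart of bacterial L33, averaged 488 ± 49.7 with sh1, 460 ± 49.1 with sh6 and 608 ± 100 in controls. For MRPL33 the lowest control library, at 493, lay within the range of both hairpins, and the sh1 call was lost without control replicate 1 or 2 (adjusted p 0.0589 to 0.0616).

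The largest falls against the controls came with sh6, in MRPL45 and MRPL17. MRPL45, which sits near the exit of the protein tunnel and helps to hold the ribosome at the inner membrane, had counts of 460, 457 and 504 with sh6, against 1077, 1145 and 1095 in controls. The sh6 libraries were all under the lowest control, a 2.33-fold fall (log2 change -1.13, SE 0.061, adjusted p = 2.65e-16). With sh1 its counts were 1001, 1002 and 991.5, also below every control, but the change of -0.14 was not called (adjusted p = 0.0519). It was called without sh6 replicate 1 or 3 (adjusted p 0.0364 to 0.0453). MRPL45 spans bases 38297023 to 38323218 of chromosome 17, plus strand (GRCh38), with no annotated gene on the opposite strand over it.

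MRPL17, the counterpart of bacterial L17 at the rim of the exit tunnel, had counts of 484, 472 and 461 with sh6, against 977, 1006 and 960 in controls. It fell 2.08-fold with sh6 (log2 change -0.97, SE 0.064, adjusted p = 2.64e-14). With sh1 it had counts of 862, 886 and 776, a log2 change of -0.21 (adjusted p = 0.00584) that was not called without sh1 replicate 3 (adjusted p = 0.0698). The sh6 libraries therefore lay far under both other groups, with a difference of -0.76 from sh1 (adjusted p = 1.41e-11). MRPL17 spans bases 6680782 to 6683401 of chromosome 11, minus strand (GRCh38).

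Falls of at least 1.5-fold with sh6 were also seen in MRPS10, described with MRPL4 after these, and in MRPS35, MRPL18 and MRPL14. MRPS35, a protein particular to mitochondria, had counts of 912, 935 and 927 with sh1, 622, 751 and 709 with sh6, and 1022, 1108 and 1090 in controls. MRPL18, whose bacterial counterpart binds 5S ribosomal RNA, had counts of 1536, 1545 and 1543 with sh1, 1182, 1172 and 1190 with sh6, and 1747, 1882 and 1719 in controls. In both genes the 3 groups were fully apart, with sh6 lowest and controls highest, and the log2 changes with sh6 were -0.59 for MRPS35 (adjusted p = 2.60e-09) and -0.57 for MRPL18 (adjusted p = 1.96e-10). MRPL14, the counterpart of bacterial L14, averaged 957 ± 76.6 with sh1, 667 ± 19.8 with sh6 and 1018 ± 75.6 in controls (SD, n = 3 each). It fell with sh6 (log2 change -0.57, adjusted p = 8.47e-09) and was not called with sh1 (-0.08, adjusted p = 0.278). The gene TMEM63B, which overlaps the start of MRPL14 on the other strand over 544 bases, averaged 1367 with sh1, 1438 with sh6 and 1269 in controls.

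Called in opposite directions were 2 genes, MRPS10 and MRPL4, beside 6.40% of all genes tested. MRPS10, the counterpart of bacterial S10 in the head of the small subunit, had counts of 1746, 1798 and 1728 with sh1, 770, 888 and 950 with sh6, and 1464, 1307 and 1326 in controls. The 3 groups were fully apart, with sh1 above and sh6 below the controls. The log2 changes were 0.35 with sh1 (SE 0.065, adjusted p = 2.85e-05) and -0.62 with sh6 (SE 0.065, adjusted p = 9.62e-10). MRPL4, the counterpart of bacterial L4 that lines the exit tunnel, had counts of 5364, 5929 and 5535 with sh1, 3951, 3481 and 3561 with sh6, and 4489, 4176 and 4303 in controls. Again no group overlapped another, with log2 changes of 0.37 with sh1 (SE 0.056, adjusted p = 1.22e-06) and -0.24 with sh6 (SE 0.056, adjusted p = 0.000443). MRPS10 spans bases 42206801 to 42217865 of chromosome 6, minus strand, and MRPL4 bases 10251901 to 10260045 of chromosome 19, plus strand (GRCh38).

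**Figure D4:**
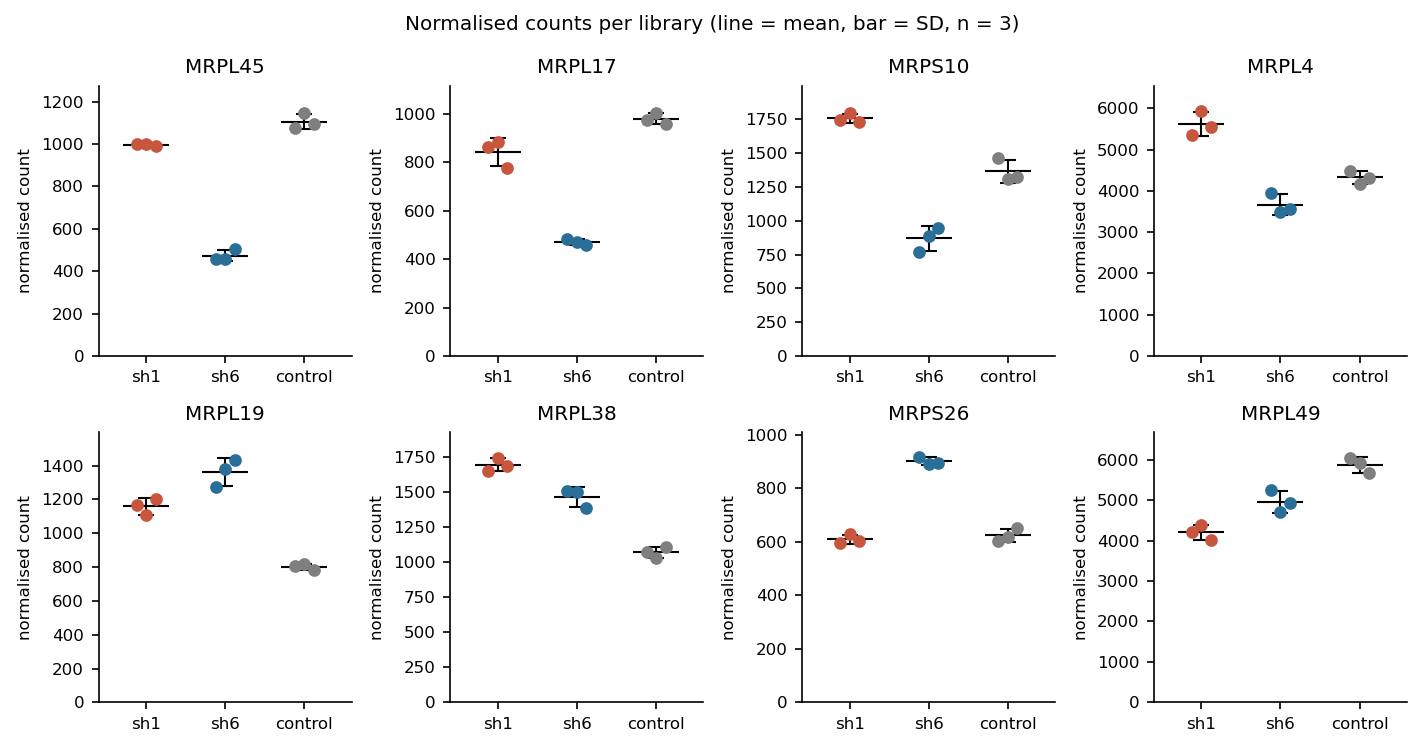
Normalised count per library for MRPL45, MRPL17, MRPS10, MRPL4, MRPL19, MRPL38, MRPS26 and MRPL49, with sh1, sh6 and control from left to right; points are libraries, lines means, bars SD, n = 3. MRPL45 averages 473.7 with sh6 against 1106 in controls, while MRPS10 averages 1757 with sh1, 869 with sh6 and 1365 in controls.

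The promoter stretches of 3 genes that fell at least 1.5-fold with sh6 (MRPL45, MRPL17 and MRPL18), of the pair that went in opposite directions and of the gene with the largest rise are shown as RefSeq gives them (GRCh38.p14), each read 5′ to 3′ on the strand of its gene and cut to bases that no annotated exon covers. They are MRPL45 at chr17:38296918-38297022 on the plus strand, MRPL17 at chr11:6683402-6683551 on the minus strand, MRPL18 at chr6:159789750-159789811 and at chr6:159790316-159790465 on the plus strand, MRPS10 at chr6:42217866-42218015 on the minus strand, MRPL4 at chr19:10251751-10251900 on the plus strand and MRPL19 at chr2:75646633-75646782 on the plus strand. Capitals mark letters of the motifs described after them, NRF1 in MRPL17 and ETS/GABP in the downstream stretch of MRPL18, and the other stretches hold none. The downstream stretch of MRPL18 precedes a further RefSeq start inside the annotated gene, and the stretch before the start of the gene holds no match.
MRPL45: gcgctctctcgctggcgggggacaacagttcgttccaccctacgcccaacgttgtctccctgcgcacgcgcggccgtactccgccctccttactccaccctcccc
MRPL17: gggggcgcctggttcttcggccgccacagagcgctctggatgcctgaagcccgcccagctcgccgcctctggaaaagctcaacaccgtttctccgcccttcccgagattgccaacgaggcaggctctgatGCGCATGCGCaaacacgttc
MRPL18 gene start: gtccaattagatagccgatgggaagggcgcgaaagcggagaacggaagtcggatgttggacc
MRPL18 downstream start: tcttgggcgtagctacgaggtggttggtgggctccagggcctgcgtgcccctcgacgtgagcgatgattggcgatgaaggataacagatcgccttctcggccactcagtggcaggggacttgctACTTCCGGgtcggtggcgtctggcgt
MRPS10: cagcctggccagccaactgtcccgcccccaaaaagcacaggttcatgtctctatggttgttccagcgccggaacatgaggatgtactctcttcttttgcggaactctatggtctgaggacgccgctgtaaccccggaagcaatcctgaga
MRPL4: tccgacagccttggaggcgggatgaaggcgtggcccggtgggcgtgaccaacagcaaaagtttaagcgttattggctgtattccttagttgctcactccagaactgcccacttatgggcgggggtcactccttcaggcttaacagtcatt
MRPL19: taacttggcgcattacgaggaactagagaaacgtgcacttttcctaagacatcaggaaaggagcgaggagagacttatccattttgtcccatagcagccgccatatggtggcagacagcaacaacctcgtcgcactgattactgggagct

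NRF1, GABP and YY1 are transcription factors known for binding the promoters of nuclear genes with mitochondrial products. 4 short motifs were looked up on both strands from 250 bases before to 50 after each RefSeq start, for the 69 members in the RefSeq table. The NRF1 letters GCATGCGC were found for 6 of 69 members (8.70%), beside 3.68% of all 27305 genes with a promoter and 6.37% of the 10061 of them that were tested. MRPL17 was the only gene lower with both hairpins that held them, as 2 matches that overlap on opposite strands. The ETS/GABP letters ACTTCCGG were found for 12 (17.4%), beside 4.95% and 9.97%. The YY1 letters AAGATGGC were found for 21 (30.4%), beside 3.52% and 6.43%, and they include an ATG. On the strand of the gene they stood in 17 members, and in 13 of these the ATG was an annotated start codon. The E-box CACGTG was found for 9 (13.0%), beside 8.78% and 12.4%. Of the 10 genes higher with both hairpins that had a promoter, 2 held the ETS/GABP and 2 the YY1 letters, and of the 11 lower with both, 2 and 3 did. For MRPL45 the YY1 and E-box letters, and for MRPS10 the YY1 letters, lie in the window but outside the stretch shown. MRPS35 and MRPL14 also fell at least 1.5-fold with sh6, and their stretches are not shown. MRPS35 held none of the 4 motifs, and MRPL14 held the E-box alone. A match describes letters and not a bound site.

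Of the 78 genes 24 were called with sh6 and not with sh1, beside 23.1% of all genes tested, and 11 with sh1 and not with sh6, beside 14.3%, so the share of the 78 was close to the share of all genes for sh1. Among the 11, MRPS12, the counterpart of the bacterial decoding protein S12, had counts of 582, 638 and 656 with sh1, 554, 573 and 486 with sh6, and 459, 354 and 604 in controls. It rose with sh1 (log2 change 0.39, adjusted p = 0.00133), but the highest control overlapped the sh1 libraries. Its log2 change with sh1 was 0.22 without control replicate 2 and 0.56 without control replicate 3. The change with sh6, 0.19, was not called (adjusted p = 0.0910), and was called without sh6 replicate 3 or control replicate 3 (adjusted p 0.000234 to 0.0457). MRPL42 averaged 1165 ± 24.9 with sh1, 1518 ± 86.0 with sh6 and 1601 ± 178 in controls, and fell with sh1 (log2 change -0.43, adjusted p = 1.23e-06), although the -0.07 with sh6 was called without control replicate 3 (adjusted p = 0.0394). MRPL10, at the base of the stalk that carries MRPL12, had counts of 413, 473 and 389 with sh1, 647, 576 and 630 with sh6, and 590, 558 and 545 in controls. Its sh1 libraries lay below all others (log2 change -0.37, adjusted p = 6.52e-05). MRPL30, the counterpart of bacterial L30, likewise fell with sh1 (-0.32, adjusted p = 2.05e-05) and was not called with sh6 (0.11, adjusted p = 0.110).

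Among the 24, the genes that rose included MRPS26 and MRPL55. MRPS26, a small-subunit protein particular to mitochondria, had counts of 595, 629 and 603 with sh1, 917, 890 and 895 with sh6, and 602, 620 and 650 in controls. The sh6 libraries stood apart above the other 6, which overlapped, with a log2 change of 0.49 with sh6 (adjusted p = 4.11e-08) and -0.03 with sh1 (adjusted p = 0.683). MRPL55 averaged 283 ± 11.7 with sh1, 377 ± 44.5 with sh6 and 244 ± 23.1 in controls, and rose with sh6 (log2 change 0.52, adjusted p = 1.68e-06). Its change of 0.18 with sh1 was not called (adjusted p = 0.0628), and was called without sh6 replicate 1 or control replicate 3 (adjusted p 0.0171 to 0.0451).

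Set against sh1 directly, sh6 gave higher levels of 14 MRPL and 7 MRPS genes and lower levels of 11 MRPL and 8 MRPS genes, which is 26.9% higher and 24.4% lower beside 30.8% and 28.9% of all genes tested. The MRPS genes lower with sh6 than with sh1 numbered 5 without sh1 replicate 3 and 3 without sh6 replicate 3. At least 1.5-fold apart were MRPL45, MRPL17, MRPS10 and MRPL4, all lower with sh6, where 18.8% of all genes were that far apart. MRPS10 averaged 869 ± 91.3 with sh6 and 1757 ± 36.0 with sh1, 2.02-fold lower with sh6 (log2 difference -0.97, SE 0.065, adjusted p = 7.07e-14). MRPL45 averaged 474 ± 26.6 with sh6 and 998 ± 5.66 with sh1, a log2 difference of -0.99 (adjusted p = 1.21e-14). The largest differences in the other direction were MRPS26 at 0.52 (adjusted p = 1.95e-08), MRPL10 at 0.48 (adjusted p = 1.05e-06), MRPL30 at 0.43 (adjusted p = 2.24e-07), MRPL42 at 0.36 (adjusted p = 1.86e-05) and MRPL55 at 0.35 (adjusted p = 0.000575).

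No call was made with either hairpin for 19 of the 78 genes, 24.4%, beside 17.9% of all genes tested. Of these 16 were also not called between the hairpins. The smallest changes were those of MRPL48, MRPS5 and MRPL47. MRPS5, the counterpart of bacterial S5, averaged 1058 ± 46.4 with sh1, 1054 ± 25.5 with sh6 and 1085 ± 23.5 in controls, and its groups overlapped (adjusted p = 0.628 for sh1 at log2 -0.03, adjusted p = 0.568 for sh6 at log2 -0.04). MRPL48 averaged 900 ± 14.1, 885 ± 73.3 and 899 ± 56.9 in sh1, sh6 and control libraries.

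Levels differed far more between genes than between groups. Per kilobase of coding length, the 78 genes ran from 272 to 8437 normalised counts with sh1 (median 1364), from 249 to 9958 with sh6 (median 1446) and from 230 to 11800 in controls (median 1280). The highest in controls were MRPL49 at 11800, MRPS15 at 5574 and MRPL4 at 4633, and the lowest were MRPL46 at 230, MRPS28 at 305 and MRPS31 at 347. Each is a level and not a protein ratio, and the gene models used for length are not those of the authors. Coding length also leaves out the untranslated regions, whose reads may be in the counts, so the order may depend in part on their size. MRPS28 averaged 153 ± 2.79 with sh1, 140 ± 23.3 with sh6 and 171 ± 29.6 in controls. Its sh6 fall (log2 change -0.22, adjusted p = 0.0476) came from overlapping groups and was lost in 7 of the 9 fits that left out a library (adjusted p 0.0541 to 0.307). MRPS31 was not called in any comparison, except with sh6 without sh6 replicate 1 (adjusted p = 0.0262).

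The genes were also split by the kind of protein, to be read beside the 29.0% higher and 30.0% lower of all genes tested with sh1 and the 34.2% and 33.6% with sh6. Of 28 large-subunit genes with bacterial counterparts, 6 rose and 7 fell with sh1, and 10 rose and 9 fell with sh6. Of 18 listed as particular to mitochondria, 2 rose and 5 fell with sh1, and 4 rose and 5 fell with sh6. MRPL47 was counted in that list although it is now held to be the counterpart of bacterial L29. In the small subunit, 8 of 17 genes with bacterial counterparts rose and 3 fell with sh1, and 5 rose and 4 fell with sh6. Of 9 particular to mitochondria, 1 rose and 3 fell with sh1, and 3 rose and 4 fell with sh6. Some symbols do not match the place of the protein: MRPS18A and MRPS30 sit in the large subunit, and MRPS36 belongs to the 2-oxoglutarate dehydrogenase complex. None of these was called with sh1, and MRPS36 alone was called with sh6 (log2 change -0.19).

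Other proteins of the ribosome and its assembly were counted in the same way, and the shares of all genes called, 29.0% higher and 30.0% lower with sh1 and 34.2% and 33.6% with sh6, apply to every list that follows. Of 5 ribosomal components with other names, DAP3 and AURKAIP1 rose and CHCHD1 fell with both hairpins. DAP3, a GTP-binding protein of the small subunit, averaged 3759 ± 38.9 with sh1, 3731 ± 106 with sh6 and 2251 ± 99.8 in controls (log2 changes 0.72 and 0.71). CHCHD1, also of the small subunit, averaged 557 ± 16.1, 295 ± 10.8 and 712 ± 19.1 (log2 changes -0.32 and -1.12). Of 24 assembly and ribosomal RNA modification genes, 9 rose and 2 fell with sh1 and 10 rose and 6 fell with sh6, with median log2 changes of 0.13 and 0.11. DHX30, an RNA helicase of assembly, averaged 1327 ± 53.4 with sh1, 1522 ± 66.5 with sh6 and 727 ± 82.6 in controls, and MTG2, DDX28 and MPV17L2 also rose with both.

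Factors that use the ribosome were mixed. Of 18 translation factors, 7 rose and 3 fell with sh1 and 5 rose and 7 fell with sh6. The elongation factor GFM1 rose with both hairpins (log2 changes 0.54 and 0.33), as did GUF1, and the initiation factor MTIF3 (-0.32 and -0.56) and the recycling factor GFM2 fell. Of 17 mitochondrial aminoacyl-tRNA synthetases, which charge the transfer RNAs, 6 rose and 2 fell with sh1 and 8 rose and 3 fell with sh6. AARS2, SARS2 and CARS2 were among the 4 that rose with both, while 1 fell with both and 1 was called in opposite directions. Of 12 genes of mitochondrial transcription and RNA processing, 5 rose with sh1, and 4 rose and 2 fell with sh6. POLRMT, the mitochondrial RNA polymerase, rose with both (log2 changes 0.55 and 0.71), as did PNPT1 and MTPAP. Of 9 nuclear regulators, 4 rose and 2 fell with sh1, and 3 rose and 3 fell with sh6. GABPA, the subunit of GABP that binds DNA, averaged 1089 ± 28.2 with sh1, 948 ± 56.3 with sh6 and 1702 ± 112 in controls (log2 changes -0.61 and -0.80), and PPRC1, a coactivator, rose (0.39 and 0.53). PPARGC1A, another coactivator, fell with sh6 (-0.72, adjusted p = 3.53e-09) and was not called with sh1 (-0.05, adjusted p = 0.621).

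Also counted were the nuclear genes of the respiratory chain, whose mitochondrially encoded subunits the ribosome makes, and of the cytosolic ribosome. Of 77 nuclear respiratory chain genes, 9 rose and 45 fell with sh1 and 17 rose and 27 fell with sh6, with median log2 changes of -0.19 and -0.06. With sh6 the 35.1% of them called lower was close to the 33.6% of all genes. Of 81 cytosolic ribosomal protein genes, 76 fell with sh1, and 5 rose and 42 fell with sh6, with medians of -0.44 and -0.12. These counts stand beside those of the 78 genes, 17 higher and 18 lower with sh1 and 24 each way with sh6, and no test was made between the lists.

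**Figure D5:**
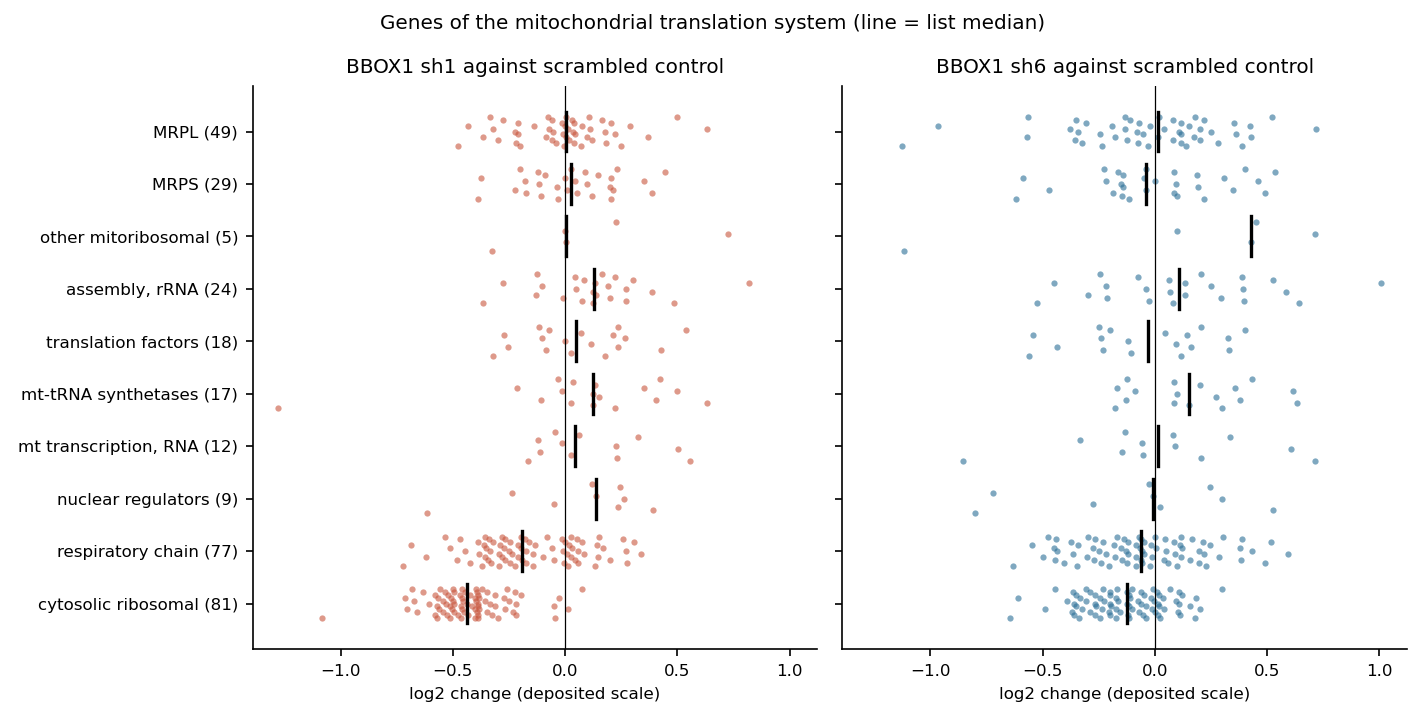
Log2 change on the deposited scale (horizontal axis) of the genes of each list (rows, number tested in brackets), with sh1 on the left and sh6 on the right; each point is a gene and the line is the median of the list. The medians of the MRPL and MRPS genes lie within 0.04 of 0, and those of the respiratory chain and cytosolic ribosomal lists lie below 0 in both panels.

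Many of the 78 genes start close to another gene on the opposite strand. In the GENCODE 29 annotation, 24 began head to head with a tested gene within 1 kb, which makes 23 pairs because MRPL46 and MRPS11 face each other 34 bases apart. With sh1, both genes of a pair were called in the same direction in 4 pairs and in opposite directions in 4, and with sh6 in 3 and 3. Neither gene was called in 6 pairs with sh1 and in 4 with sh6, and in the remaining pairs 1 gene alone was called. Gene pairs in general were not counted, so whether agreement at shared starts is high or low was not tested. MRPL46 and MRPS11 both rose with sh1 (log2 changes 0.22 and 0.21), and with sh6 MRPL46 alone was called (0.22, against 0.001 for MRPS11). MRPS12 starts 348 bases from SARS2, the mitochondrial seryl-tRNA synthetase, which averaged 370 ± 13.4 with sh1, 432 ± 27.8 with sh6 and 262 ± 31.5 in controls. MRPL43 faces TWNK, the helicase of mitochondrial DNA, which averaged 292 with sh1, 365 with sh6 and 159 in controls (log2 changes 0.69 and 0.95), while MRPL43 was not called (-0.07 and 0.02). MRPL47 starts 36 bases from NDUFB5, a subunit of respiratory complex I, which fell with both (-0.37 and -0.44) while MRPL47 was not called. The sources used here do not state the strand setting of the counting. For the 23 members that overlap a tested gene on the opposite strand, reads from the overlap therefore cannot be told apart. These overlaps of gene spans ran from 3 bases (MRPL13 and MTBP) to 109735 (MRPL33 and RBKS). Some members also overlap a tested gene on the same strand, where a strand setting cannot help. CCDC142, for instance, overlaps MRPL53 over 1337 bases, and URGCP-MRPS24 overlaps MRPS24 over 3336.

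In the authors' deposited table, whose own comparison does not name its samples, 12 of the 78 genes had a positive and 10 a negative log2 fold change at an adjusted p under 0.05, beside 16.8% and 16.3% of the 16684 genes with an adjusted p there. Of those that passed, the largest in the authors' deposited table were MRPL19 at 0.65 (adjusted p = 3.41e-09), MRPL38 at 0.56 (2.75e-08) and MRPS2 at 0.53 (8.13e-06) above 0. Below 0 they were MRPL53 at -0.46 (adjusted p = 0.00150) and MRPS35 at -0.41 (0.0198), again in the authors' deposited table. MRPL45 at -0.59 (adjusted p = 0.116) and MRPL17 at -0.58 (0.0503) lay further below 0 in the authors' deposited table but did not pass. MRPL4 did not pass there (0.10, adjusted p = 0.735).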

How the data were processed

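Polyadenylated RNA of 9 libraries, 3 per group, was sequenced as paired reads, per the labels' protocols. Upstream tools in the submitters' processing notes are DESeq2, Salmon, STAR and cutadapt, with the build hg19 and no versions or settings. The deposited table holds log2-like values, a variance-stabilising transformation by the authors per the table's name, beside a fold change on the log2 scale and an adjusted p-value, both computed by the authors and deposited without the samples compared. All libraries share the floor 5.0194. The name also calls the values batch-corrected, yet they keep the steps of whole reads: 76.6% to 80.4% of values between 0.5 and 20.5 recovered reads per library were whole within 0.05. The transformation was inverted to normalised counts, which give the counts, folds and SDs of the text, while log2 changes are differences of deposited values and understate changes of low genes.

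Genes with a mean at least 1 above the floor, a normalised count of 16.2, were tested, 13165 in all. limma 3.58.1 in R 4.3.3 (lmFit, eBayes with trend, two-sided) was fitted to 9 libraries in 1 model of 3 groups, with Benjamini-Hochberg adjustment over all genes. The fit was tested on simulated data. Members were named by rule: the largest changes called with both hairpins, in opposite directions, in each comparison, the highest and lowest per length, and the smallest changes. Members outside it, such as MRPL12, HARS2, ESRRA, PPARGC1A and the genes at shared starts or overlaps, were named after their values were seen. The members and lists were chosen with earlier results of these data known. Alternatives were other filters, scalings, variance priors, weights, thresholds, a replicate block and leaving out each library. Positions and coding lengths came from GENCODE 29 (GRCh38), promoters from RefSeq (GRCh38.p14). No coordinate of the authors' build was used. Python 3.11.15 with pandas 2.3.3 and matplotlib 3.10.9 did the rest.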

Additional observations from a re-analysis of the deposited data

Results flagged for a closer look

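MRPS10 and MRPL4 were picked out because the hairpins moved them in opposite directions, and limma called the difference between the hairpins itself. For MRPS10 the sh6 minus sh1 log2 difference was -0.97 (SE 0.065, adjusted p = 7.07e-14), with all 3 sh6 libraries below and all 3 sh1 libraries above the controls. Over 20 other fits it ran from -1.03 to -0.89. For MRPL4 the difference was -0.61 (SE 0.056, adjusted p = 9.39e-11), again with no overlap between groups, and it ran from -0.75 to -0.57.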

How the results depend on the processing

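Direction was checked for the 30 named genes only, and under the alternatives tried none of their log2 changes changed direction while called. Of the log2 changes of the 30 named genes, 1720 values kept their side of the threshold, 24 were newly called and 56 were no longer called, and of the medians 4 moved and 110 did not move by more than the spread between replicates. Centred on the library median, the MRPS genes lower with sh6 numbered 5, and lower with both 3. With sample weights 7 MRPS genes were higher with both. At an adjusted p under 0.01, 9 MRPL genes were higher with sh6, 9 higher with sh6 than with sh1 and 4 higher with both, while 5 MRPS genes were higher with sh1, 4 lower with sh6, 3 lower with sh6 than with sh1, 1 higher with both and 1 lower with both. Leaving out each library gave 1 to 5 MRPS genes higher with both, 2 to 5 lower with both, 5 to 9 lower with sh6 and 3 to 9 lower with sh6 than with sh1. Among MRPL genes it gave 6 to 12 higher with sh1 and 11 to 18 higher with sh6 than with sh1. It also gave 5 to 10 MRPL genes higher with both and 4 to 8 lower with both. The cause of these moves was not tested, beyond the stricter threshold and the smaller number of libraries. Same-numbered libraries of different groups deviated together at r of -0.13 to 0.18, and differently numbered ones at r of -0.18 to 0.17. The values are named batch-corrected, which could remove deviations shared within a batch, so these correlations cannot decide whether the numbers pair libraries. With the replicate block 16 MRPL genes, against 14 without it, were higher with sh6 than with sh1, and no other count of calls changed. Depth limits the lowest members most, MRPS28 and MRPL46.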

Other observations

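GENCODE 29 names 75 pseudogenes after 34 of the members, and 2 of them have their own entries in the table. MRPS31P5 averaged 102 ± 8.24 with sh1, 101.2 ± 1.41 with sh6 and 57.6 ± 2.93 in controls (SD, n = 3 each), whereas MRPS31 itself was not called. MRPL45P2 averaged 15.5 ± 3.59, 13.1 ± 4.27 and 18.95 ± 1.15 and was too low to be tested. Reads of a gene and its copy may be split by the counting. HARS2, the mitochondrial histidyl-tRNA synthetase, had a mean count of 382 with sh1, 920 with sh6 and 1017 in controls, a log2 change of -1.28 with sh1 and of -0.13, not called, with sh6 (adjusted p = 0.119). ESRRA, a nuclear receptor of mitochondrial gene programmes, averaged 976 with sh1, 662 with sh6 and 815 in controls, and was called in opposite directions with the hairpins (log2 changes 0.24 and -0.28), as MRPS10 and MRPL4 were.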
